A study of Mus musculus with 2 samples.

Results

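The lymphocytes described here are the T and NK cells of mouse Achilles tendon, picked out of single-cell RNA-seq libraries of an injured and an uninjured limb by the UMI counts of a few genes. A UMI is a molecular tag that marks 1 captured RNA molecule. A cell was a member when it had 2 or more UMIs of the CD3 chain genes Cd3d, Cd3e and Cd3g together, or 3 or more UMIs of the NK genes Nkg7, Klrb1c and Ncr1 together. Members also had under 10 UMIs of the macrophage genes C1qa, C1qb and C1qc per 10000, and under 1% of their UMIs from the neutrophil genes S100a8 and S100a9. The rule found 249 cells of the 14126 that passed the filters: 213 of 9366 in the injured library and 36 of 4760 in the uninjured library. It read those 11 genes, so their levels describe the selection and support nothing further.

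T cells recognise antigen with a receptor that is paired with the CD3 chains on the cell surface. Most carry an alpha-beta receptor, whose alpha chain ends in the constant region encoded by Trac, while gamma-delta T cells use the delta constant region Trdc. Regulatory T cells, defined by the transcription factor Foxp3, restrain immune responses and are known in injured muscle and skin for producing the growth factor amphiregulin. NK cells lack the CD3 chains, kill target cells with perforin and granzymes, and read self MHC through Ly49 receptors encoded by the Klra genes.

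The injured library came from the injured tendon of burn/tenotomy mice at day 7 after tenotomy, and the uninjured library from the contralateral, uncut tendon of burn/tenotomy mice. Both libraries carried the same 3 alleles: Hoxa11 wt/CreERT2, R26 wt/LSL-rtTA and TetO-Vegfd. The Cre is driven by Hoxa11, so the Vegfd transgene depends on cells with Hoxa11 activity. The mice were male and female, 8 to 12 weeks old, 5 per group by the series' design, and the soft tissue behind the tibia between the origin and insertion of the Achilles tendon was taken. The number of animals behind each library and the tamoxifen and doxycycline dosing were not stated. Every comparison below is of injury within this 1 genotype; control-genotype animals were not analysed here.

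With 1 library per limb there was no replicate and no test of a difference between limbs. Intervals are exact 95% intervals on counts and cover counting error only, not the spread between animals or dissections. The injured library held 10691 barcodes with a median of 15288 UMIs, and the uninjured library 6850 barcodes with a median of 11606.5. The share of barcodes over the limit of 10% mitochondrial UMIs was 7.49% in the injured library and 26.4% in the uninjured library. Only 19 barcode sequences occurred in both.

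Members had a median of 7666 UMIs (1082 to 112257) in the injured library and 9014 UMIs (5381 to 17391) in the uninjured library. A few injured members were far deeper than the rest: 22 exceeded 30000 UMIs, against 0 uninjured members. At the edge of the rule, 4 injured and 2 uninjured members had exactly 2 CD3 UMIs and under 3 NK UMIs, while 44 injured and 2 uninjured cells with 1 CD3 UMI stayed outside. By the NK gate, 2 injured and 1 uninjured members had exactly 3 NK UMIs, and 0 injured and 2 uninjured cells with 2 stayed outside. The macrophage limit had 1 injured member between 8 and 10 C1q UMIs per 10000 and 1 injured cell between 10 and 12 outside.

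Markers of other cell types were present in some members, and more in the injured library. Summed over Col1a1, Col1a2, Col3a1, Dcn and Lum, fibroblast markers reached 13490 CPM (UMIs per 1000000 UMIs of the summed cells) in injured members and 943 CPM in uninjured members. A member was called mixed when it had 20 or more UMIs per 10000 of the fibroblast or macrophage list, or 10 or more of another cell type's list. This held for 26 injured members, 16 of them by fibroblast and 6 by endothelial markers, and for 2 uninjured members, 1 by mast cell and 1 by fibroblast markers. The mixed injured members had a median of 48087.5 UMIs, against 7498 in the others, and carried 43.5% of all injured member UMIs. Without them, 187 injured and 34 uninjured members remained, with fibroblast markers at 549 and 219 CPM. Macrophage markers summed to 310 CPM in injured and 28.7 CPM in uninjured members, and to 192 and 27.8 CPM without the mixed cells, with C1qa, C1qb, C1qc and Adgre1 at 0 in uninjured Trac-positive T cells. B cell markers summed to 5.24 CPM in injured members and were at 0 in uninjured members. The part of these markers in the results below was not tested. Values without the mixed cells are given for some calls and levels only. Levels not marked so include the mixed cells and can move either way without them. In injured T cells with Trac and no Trdc, Ctla4 was at 482 CPM with and 686 CPM without the mixed cells. Rgs5 was at 193 CPM with and 59.2 CPM without them.

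Ptprc, which encodes the leukocyte antigen CD45, was not read by the rule. It had a UMI in 204 of 213 injured and 34 of 36 uninjured members. Among all filtered cells it had a UMI in 4708 of 9366 injured and 633 of 4760 uninjured cells. Ptprc marks leukocytes in general, so it does not tell T and NK cells from other leukocytes. Outside the members Cd3e was scarce, with a UMI in 0.263% of injured fibroblast-gate cells (non-members with high collagen and no Ptprc) and in 0 of 1387 uninjured ones. Trac was less clean, with a UMI in 7.11% of injured fibroblast-gate cells (162 of 2278, median 42123 UMIs) and 0.577% of uninjured ones (8 of 1387, median 19120 UMIs). A Trac UMI without CD3 UMIs was therefore not used to call a T cell.

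**Figure D1:**
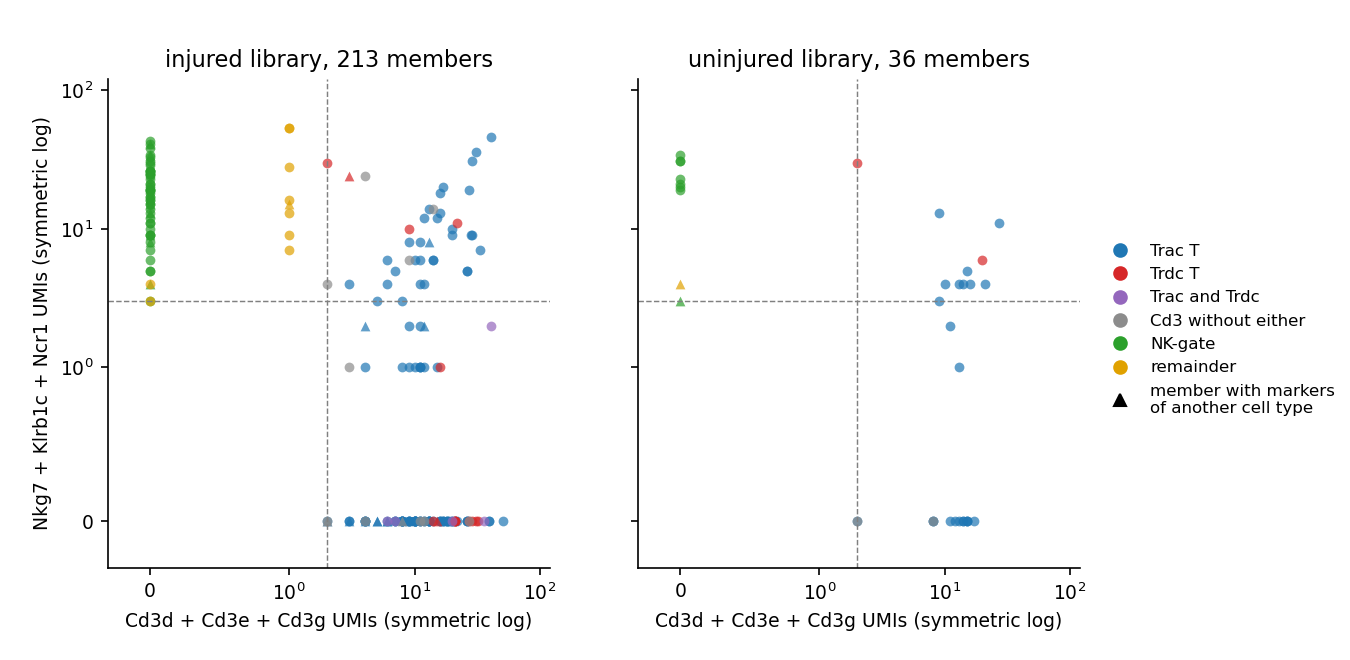
Each point is 1 member, with its summed CD3 UMIs on the x axis and its summed NK gene UMIs on the y axis, injured library on the left and uninjured library on the right; colours give the subset, triangles the mixed members and dashed lines the limits of 2 and 3 UMIs. Of the injured members 108 passed by CD3 alone, 65 by NK genes alone and 40 by both, against 16, 9 and 11 of the uninjured members.

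T and NK cells made up 2.27% of filtered cells in the injured library (213 of 9366, interval 1.98 to 2.60%) and 0.756% in the uninjured library (36 of 4760, interval 0.530 to 1.05%). Among cells with a Ptprc UMI the order was the opposite, 4.33% in the injured library (204 of 4708, interval 3.77 to 4.95%) and 5.37% in the uninjured library (34 of 633, interval 3.75 to 7.43%), and these intervals overlapped. The injured library held more members per cell sampled, while no difference per cell with a Ptprc UMI was resolved. The part of Ptprc UMIs that came from RNA of other cells was not tested. The order by filtered cells held in cells of either sex: 2.60% injured and 0.988% uninjured among Xist-positive cells lacking Y-linked UMIs, and 1.84% injured and 0.524% uninjured among Y-positive cells lacking Xist. Dissection, digestion and the mitochondrial limit also set these shares, and were not tested.

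No difference in the split into subsets was resolved between limbs. T cells with a Trac and no Trdc UMI, called Trac T cells below, were 54.5% of injured members (116 cells, interval 47.5 to 61.3%) and 63.9% of uninjured members (23 cells, interval 46.2 to 79.2%). T cells with a Trdc and no Trac UMI were 7.04% of injured members (15 cells) and 5.56% of uninjured members (2 cells). CD3-negative cells with an Ncr1 or Klrb1c UMI, the NK-gate cells, were 25.8% of injured members (55 cells, interval 20.1 to 32.2%) and 22.2% of uninjured members (8 cells, interval 10.1 to 39.2%). Each subset's intervals overlapped between the limbs. The other members were CD3-positive cells with both receptor genes (5 injured, 0 uninjured), CD3-positive cells with neither (12 injured, 2 uninjured) and a remainder (10 injured, 1 uninjured).

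**Figure D2:**
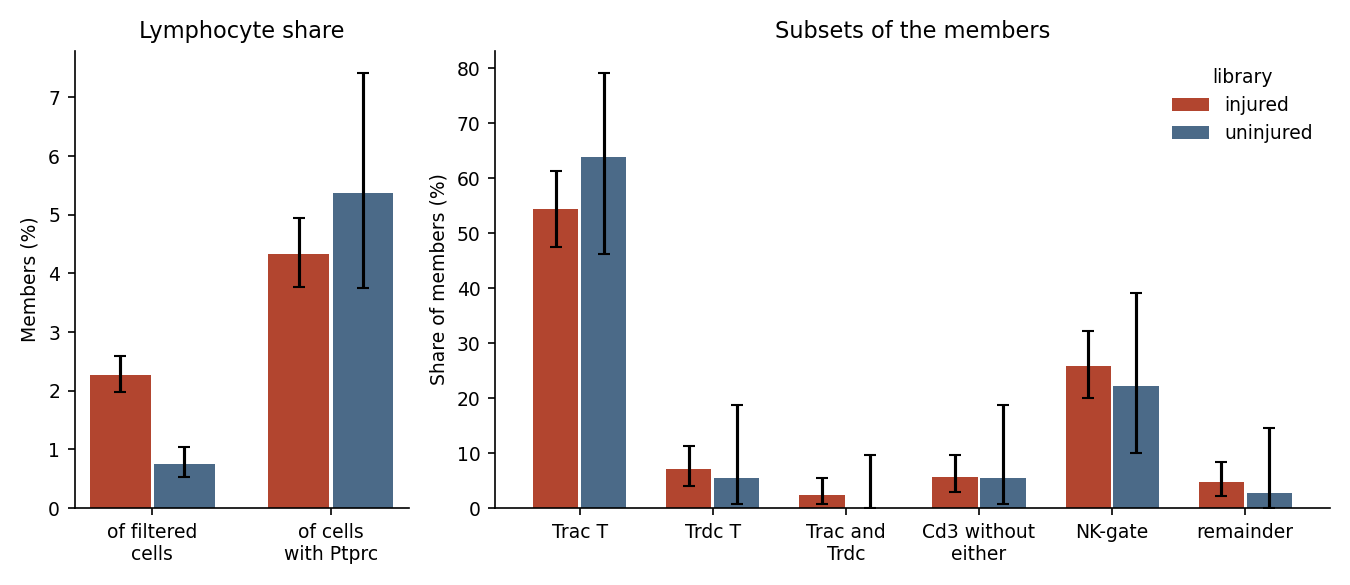
Bars are shares in percent with exact 95% intervals, injured beside uninjured: members among filtered cells and among cells with a Ptprc UMI, and each subset among members. The 2.27% of injured filtered cells lies above the 0.756% of uninjured filtered cells, while all subset intervals overlap.

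Foxp3-positive cells were found among Trac T cells of the injured tendon and not among those of the uninjured tendon. A Foxp3 UMI was present in 30 of 116 injured Trac T cells (25.9%, interval 18.2 to 34.8%) and in 0 of 23 uninjured Trac T cells. A count of 0 in 23 cells allows a share of cells with a Foxp3 UMI of up to 13.0% by the limit of 3 cells and up to 14.8% by the exact interval. Without the mixed cells the injured share was 27.9% (29 of 104), and after thinning every cell to 3000 UMIs it was 20.2%, the uninjured share staying at 0 in both. Foxp3 UMIs were close to absent elsewhere, with a UMI in 0.263% of injured (6 of 2278) and 0.144% of uninjured fibroblast-gate cells (2 of 1387). Foxp3 lies on chromosome X at 7573644 to 7595245 on the plus strand (GRCm38).

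The 30 Foxp3-positive cells carried several other genes known for regulatory T cells together, none of which chose them. Ctla4, the inhibitory receptor that competes for B7 ligands, had a UMI in all 30, against 39.5% of the 86 injured Trac T cells without Foxp3 and 26.1% of the 23 uninjured Trac T cells. Il2ra, the high-affinity IL-2 receptor chain, was present in 93.3% of them, in 32.6% of the injured cells without Foxp3 and in 4.35% of the uninjured cells. Ikzf2, the transcription factor Helios, was present in 93.3% of them, in 29.1% of the injured cells without Foxp3 and in 30.4% of the uninjured cells. The co-stimulatory receptor Tnfrsf4 (OX40) was at 1187 CPM in Foxp3-positive cells, 31.6 CPM in injured cells without Foxp3 and 8.18 CPM in uninjured cells. Their depth did not set them apart within the injured library, with median UMIs of 7952.5 in Foxp3-positive and 7459.5 in Foxp3-negative cells. Other genes known for regulatory T cells were less frequent in the 30 cells: Tigit had a UMI in 10, Ebi3 in 8, Ccr8 in 7 and Lrrc32 in 3. Lrrc32 did not differ in level, at 10.2 CPM in Foxp3-positive cells and 10.5 CPM in injured cells without Foxp3.

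Several genes of the Foxp3-positive cells are known from regulatory T cells of non-lymphoid tissue. Areg, which encodes amphiregulin, had a UMI in 73.3% of Foxp3-positive cells, 5.81% of injured cells without Foxp3 and 13.0% of uninjured cells. Il1rl1, the IL-33 receptor ST2, was present in 56.7% of Foxp3-positive cells, 5.81% of injured cells without Foxp3 and 4.35% of uninjured cells. Klrg1, an inhibitory lectin-like receptor, was present in 80.0% of Foxp3-positive cells, 2.33% of injured cells without Foxp3 and 4.35% of uninjured cells. Itgb8, an integrin chain that activates TGF-beta, was present in 73.3% of Foxp3-positive cells, 4.65% of injured cells without Foxp3 and 0% of uninjured cells. These genes set the Foxp3-positive cells apart from both other groups. The granzyme gene Gzmb was present in 63.3% of Foxp3-positive cells, in 15.1% of injured cells without Foxp3 and in 0% of uninjured cells. Il10 was at 224 CPM in Foxp3-positive cells against 9.57 CPM in injured cells without Foxp3. In the opposite direction, the naive-cell regulators Bach2 and Tcf7 and the lymph node homing receptor Ccr7 were at 0 in all 30 Foxp3-positive cells. Bach2 had a UMI in 66.3% of the injured cells without Foxp3 and 91.3% of the uninjured cells, and Tcf7 in 74.4% and 87.0%. Ifng, the type 1 cytokine, was at 0 in Foxp3-positive cells and present in 29.1% of injured cells without Foxp3. Cd4 had a UMI in 90.0% of Foxp3-positive cells, 26.7% of injured cells without Foxp3 and 52.2% of uninjured cells.

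**Figure D3:**
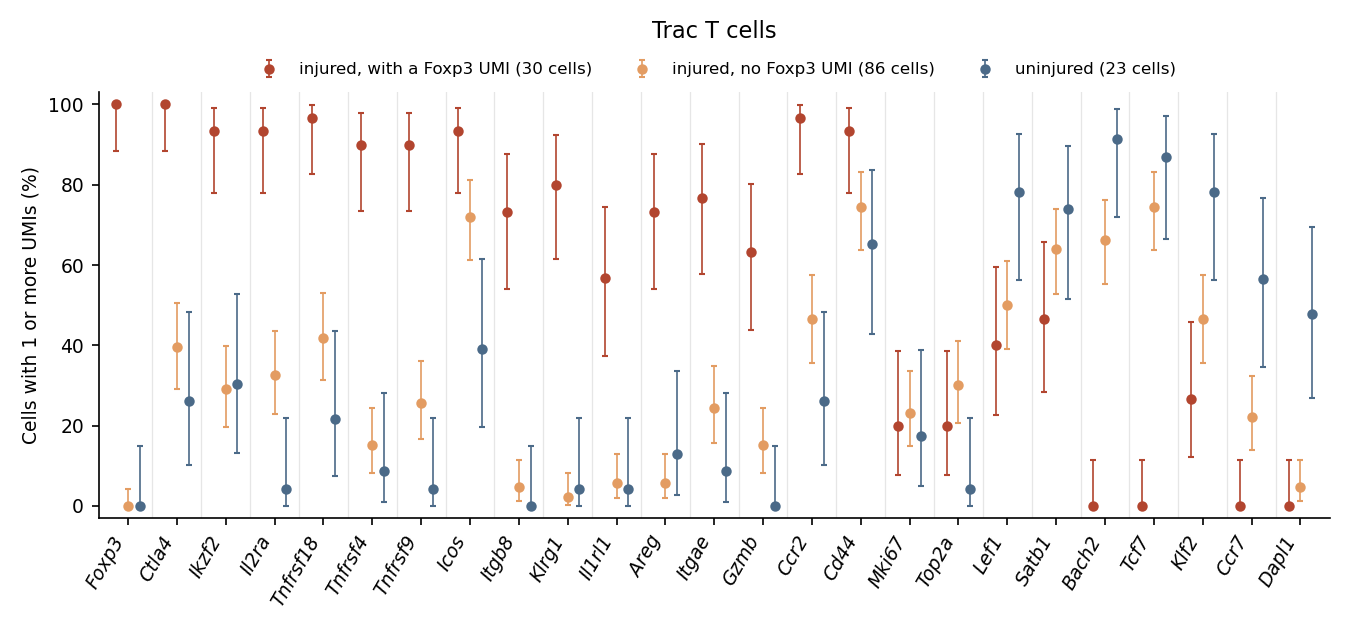
For 25 genes the share of Trac T cells with a UMI is plotted in percent with exact 95% intervals in 3 groups: injured cells with Foxp3 (30), injured cells without Foxp3 (86) and uninjured cells (23). Regulatory T genes such as Ctla4 (100%, 39.5% and 26.1%) and Klrg1 (80.0%, 2.33% and 4.35%) separate the first group, while Dapl1 (0%, 4.65% and 47.8%) and Ccr7 (0%, 22.1% and 56.5%) are most frequent in uninjured cells.

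Over all Trac T cells, summed per library, genes of the regulatory T list were higher in the injured tendon. A gene is counted here when it had 20 or more UMIs over both libraries and called when its ratio passed 2-fold with 20 CPM added to each side. Of 8135 genes, 12.6% were called higher and 2.1% lower in injured Trac T cells, with a median log2 ratio of 0.29 (10.8% and 2.89% of 6436 genes without the mixed cells). Of 17 regulatory T genes 15 were counted, 13 were called higher and 0 lower, with a median log2 ratio of 2.39 (13 of 15 and 2.82 without the mixed cells). Over other members of the injured library, 1.44% of 10283 genes were called higher in Trac T cells (2.83% without the mixed cells), the highest by rule being Tnfrsf4, Ctla4, Themis, Cd6, Cd5, Areg, Cd4, Rgs5 and Icos beside Trac. Rgs5, a pericyte gene, was at 193 CPM in 8 injured Trac T cells and at 59.2 CPM without the mixed cells. Scaled instead so that the median gene with 50 or more UMIs in each library had a ratio of 1, the median log2 ratio over counted genes was 0.44 in Trac T cells and 0.31 in all members, against 0.29 and 0.20 as reported here.

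Among the regulatory T genes, Tnfrsf9 (4-1BB) was at 369 CPM in injured and 4.09 CPM in uninjured Trac T cells, a 90.3-fold ratio (interval 16.1 to 3572) against a single uninjured UMI. Ctla4 was at 482 CPM in injured and 73.7 CPM in uninjured Trac T cells, 6.54-fold (interval 4.11 to 11.1). Ctla4 UMIs were also frequent outside the lymphocytes, in 30.4% of injured and 5.48% of uninjured fibroblast-gate cells and in 25.8% of injured and 4.67% of uninjured endothelial-gate cells. Ikzf2 was at 710 CPM in injured and 119 CPM in uninjured Trac T cells, 5.99-fold (interval 4.14 to 8.99), and it too had a UMI in 21.1% of injured and 13.3% of uninjured fibroblast-gate cells. For Tnfrsf4, a UMI occurred in 1.27% of injured and 0.505% of uninjured fibroblast-gate cells. Gzmb was at 251 CPM in injured Trac T cells (32 cells) and at 0 in uninjured ones, which makes it at least 20.4-fold higher at a floor of 3 UMIs over the uninjured cells.

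Genes of naive and central memory T cells were lower in injured Trac T cells. Of 12 such genes, all counted, 8 were called lower and 0 higher, with a median log2 ratio of −1.76. Without the mixed cells 9 were called lower, with a median of −1.59. Dapl1, a marker of naive and memory T cells in mouse, was at 5.22 CPM in injured and 291 CPM in uninjured Trac T cells, with a UMI in 4 of 116 injured and 11 of 23 uninjured cells (log2 ratio −3.62). Lef1, a transcription factor of naive T cells, was at 219 CPM in injured and 937 CPM in uninjured Trac T cells (log2 ratio −2.00). Ccr7, a lymph node homing receptor, was at 35.8 CPM in injured and 192 CPM in uninjured cells. Satb1, a chromatin organiser of T cells, was at 376 CPM in injured and 1416 CPM in uninjured cells (log2 ratio −1.86). All of these had a UMI in a larger share of uninjured than of injured Trac T cells. Those shares are at full depth, where Trac T cells had a median of 7497 UMIs in the injured and 10414 in the uninjured library.

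The same genes were lower with the Foxp3-positive cells left out. Among the 75 injured Trac T cells without Foxp3 and not mixed, 8 of the 12 naive and central memory genes were called lower than in the 23 uninjured cells, with a median log2 ratio of −1.19, where 2.80% of 5430 genes were called lower and 8.62% higher. Lef1 was at 328 CPM in these injured cells and 937 CPM in uninjured cells, and Satb1 at 673 and 1416 CPM. Klf2, which sustains the exit receptor S1pr1, was at 123 CPM in these injured cells and 417 CPM in uninjured cells. Bach2 was at 554 CPM in these injured cells and 1162 CPM in uninjured cells, while Tcf7, at 262 and 360 CPM, was not called. Regulatory T list genes were still called higher in 7 of 8 counted, with a median of 1.31.

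Cell cycle genes were higher in injured Trac T cells by summed level. Of 16 genes 13 were called higher and 0 lower, with a median log2 ratio of 1.66, and without the mixed cells 13 of 15 with 1.81. Without both mixed and Foxp3-positive cells 13 of 14 were called higher. Top2a, the topoisomerase of S and G2 phase, was at 205 CPM in injured and 12.3 CPM in uninjured Trac T cells, 16.7-fold (interval 5.66 to 81.6). The histone gene Hist1h1b was at 303 CPM in injured Trac T cells, from 14 cells, and 4.09 CPM in uninjured ones, and the replication factor Pclaf at 162 CPM and 0 (at least 13.2-fold). By share of cells the difference was smaller: a Mki67 or Top2a UMI was present in 33.6% of injured Trac T cells (39 of 116) and 21.7% of uninjured ones (5 of 23), and after thinning in 19.3% and 17.4%. Among all members the shares were 33.8% in the injured library (72 of 213) and 19.4% in the uninjured library (7 of 36), and 18.4% and 11.1% after thinning. Top2a UMIs also occurred in 24.2% of injured and 3.17% of uninjured fibroblast-gate cells, and the part of RNA from other cells in the lymphocyte shares was not tested.

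Of 8 counted receptor complex genes 0 passed 2-fold in Trac T cells, but the list holds the CD3 genes and Trac that chose these cells, so nothing is read from it. Of 3 coreceptor genes 0 passed 2-fold. Of 16 genes of receptor signalling, 3 were lower and 0 higher: Themis, which sets the signalling threshold during T cell development, was at 182 CPM in injured and 577 CPM in uninjured cells, and the kinase genes Prkcq and Txk had log2 ratios of −1.16 and −1.51. Without the mixed cells Themis and Txk remained called and Cd2 and Cd6 were called higher. Without Foxp3-positive and mixed cells 0 of 16 were called. Cd4 without Cd8 UMIs was seen in 37.9% of injured (44 of 116) and 47.8% of uninjured Trac T cells (11 of 23). Cd8 without Cd4 UMIs was seen in 19.8% of injured (23) and 30.4% of uninjured cells (7), and neither in 37.1% of injured (43) and 17.4% of uninjured cells (4). Uninjured Trac T cells were deeper, with a median of 10414 UMIs against 7497, and the part of depth in these coreceptor shares was not tested.

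Homing genes were called in both directions, and the residency and activation genes that were called were mostly higher. Over all 8135 genes 12.6% were called higher and 2.1% lower in Trac T cells. Of 15 counted chemokine receptor and homing genes, 4 were higher, among them Ccr2, Cxcr6 and Itgae, and 3 lower, among them Ccr7 and Itga4, in injured Trac T cells. Ccr4 was also called higher without the mixed cells. Ccr2, the receptor for the monocyte chemokine CCL2, was at 190 CPM in injured and 53.2 CPM in uninjured Trac T cells, 3.58-fold (interval 2.05 to 6.81). Itgae, the CD103 integrin chain that binds E-cadherin, was at 97.8 CPM in injured and 12.3 CPM in uninjured cells, and was present in 76.7% of the Foxp3-positive cells. Of 16 activation and checkpoint genes, 7 were higher and 1, Nr4a3, was lower. The co-stimulatory receptor Icos was at 573 CPM in injured and 192 CPM in uninjured Trac T cells, 2.98-fold (interval 2.22 to 4.09), and at 753 CPM in injured cells without Foxp3 and not mixed. Nr4a3, an early target of receptor signalling, was at 224 CPM in injured and 618 CPM in uninjured cells. Of 10 residency genes, 4 were higher and 0 lower (Itgae, Cxcr6, Ahr and Bhlhe40), and Rgs1 was also called higher without the mixed cells.

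Most cytokine receptor and ligand genes were not called in Trac T cells, and those called were mostly higher. Over all 8135 genes 12.6% were called higher and 2.1% lower. Of 18 counted cytokine receptor genes in Trac T cells, 6 were higher (Il2ra, Il18rap, Il23r, Il1r1, Il1rl1 and Il10ra) and 1 lower, Tgfbr2, at 138 CPM in injured and 303 CPM in uninjured cells. Without the mixed cells 8 were higher, Il2rb and Il18r1 added, and 0 lower, with Tgfbr2 at 158 CPM in injured and 303 CPM in uninjured cells. Of 12 ligands, Il10, Areg, Ccl3 and Ccl4 were higher and 0 lower. Areg was at 189 CPM in injured and 12.3 CPM in uninjured Trac T cells, 15.4-fold (interval 5.20 to 75.1). Ifng was at 59.0 CPM in injured and 85.9 CPM in uninjured cells, a ratio of 0.69 (interval 0.42 to 1.17). Without Foxp3-positive and mixed cells the order turned, at 123 CPM in injured and 85.9 CPM in uninjured cells. That ratio was 1.43 (interval 0.87 to 2.44), so no direction was resolved for Ifng. Of 9 cytotoxic granule genes 3 were higher, Gzmb, Serpinb9 and Tnfsf10; without the mixed cells Tnfsf10 was not called and Serpinb6b was.

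Of 11 glycolysis and hypoxia genes 6 were called higher in injured Trac T cells and 3 without the mixed cells. Over all genes those shares were 12.6% and 10.8%. The 3 genes were Hk2, the hexokinase at the entry of glycolysis, Pkm and the oxygen-sensing factor Hif1a. With the mixed cells included, Hk2 was at 104 CPM in injured and 32.7 CPM in uninjured cells. Pkm was then at 387 and 151 CPM, and Hif1a at 342 and 94.1 CPM. Without both mixed and Foxp3-positive cells 1 of the 11, Hk2, was called higher, where 8.62% of all genes were. There Pkm was at 203 and 151 CPM and Hif1a at 191 and 94.1 CPM, neither of them called. None of 10 interferon response genes and none of 12 immediate early genes, which dissociation is known to raise, passed 2-fold in either direction, with medians of 0.32 and 0.19. Without the mixed cells Isg15, an interferon-induced ubiquitin-like protein, was called higher, at 114 CPM in injured and 40.9 CPM in uninjured Trac T cells, and without both mixed and Foxp3-positive cells 2 of 7 interferon response genes were called higher.

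The VEGF family was read because the mice carry a Vegfd transgene. Of 4 counted VEGF ligand and receptor genes in Trac T cells, 3 were called higher in the injured library, the endothelial receptors Flt1, Kdr and Nrp2, and 0 of 1 without the mixed cells. Among all members 4 of 8 were called higher, Vegfd among them, and 0 of 3 without the mixed cells. With the cells that held markers of other cell types left out, no call in this family was left.

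The remaining genes at the extremes of Trac T cells belonged to no list. Myo1e, an unconventional myosin, was at 234 CPM in injured Trac T cells (54 cells) and 4.09 CPM in uninjured ones (1 cell). Frmd5 was at 166 CPM in injured Trac T cells and 0 in uninjured ones, at least 13.6-fold higher. Of its 223 injured UMIs, 46 lay in 1 cell. In injured Trac T cells without Foxp3 and not mixed, Frmd5 had only 6 UMIs, at 9.69 CPM. The replication-linked histones Hist1h2ap and Hist1h2ae followed Hist1h1b, with log2 ratios of 3.38 and 3.18; histone genes are near-identical copies, so reads may have been split between them. Among genes lower in injured cells, Aff3 was at 89.5 CPM in injured and 454 CPM in uninjured Trac T cells, and Scml4 at 79.1 CPM in injured and 381 CPM in uninjured ones. Sidt1 and Fam49a had log2 ratios of −1.91 and −1.81. Sox5 and Cacna1c were also among the lowest, but 27 of 45 and 33 of 40 of their uninjured UMIs came from 1 cell each.

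Gamma-delta T cells of the injured tendon mostly carried genes known from type 17 cells. Of the 15 injured Trdc T cells, 11 had UMIs of at least 2 of Cd163l1, Il17a, Trdv4 and Il23r. Cd163l1 encodes a scavenger receptor (SCART1) of IL-17-producing gamma-delta T cells and Trdv4 the delta variable segment of a fetal-type receptor. Cd163l1 had a UMI in 11 cells with at most 16 UMIs, and Trdv4 in 11 cells with at most 23. Il17a, the cytokine itself, had a UMI in 7 cells, with 31 UMIs in the highest, a mixed cell of 112257 UMIs, and 18 in the next. The IL-23 receptor gene Il23r had a UMI in 8 cells, the kinase gene Blk in 10 and the gamma segment Tcrg-V6 in 6. Cd3e was present in 13 of the 15 cells.

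The other Trdc T cells were few. At least 2 of the NK genes Ncr1, Gzma, Klra8 and Tyrobp had UMIs in 4 injured Trdc T cells, 1 of which also met the type 17 count, and 1 cell met neither. A single Trdc UMI was all that 3 of the injured cells had. The uninjured library had 2 Trdc T cells and neither had a UMI of Cd163l1, Il17a, Trdv4 or Il23r. One of them, with 1 Trdc UMI, had 58 Gzma, 22 Klra8 and 187 Ccl5 UMIs; the other, with 5 Trdc UMIs, had 210 Ccl5 and 0 Gzma UMIs. With 2 uninjured cells, no share for this limb could be compared. Trdc UMIs also occurred in 6.76% of injured and 0.216% of uninjured fibroblast-gate cells.

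Within the injured library Cd163l1 was at 435 CPM in Trdc T cells and 14.3 CPM in other members (1035 and 24.6 CPM without the mixed cells). Il17a was at 267 CPM in Trdc T cells and 1.93 CPM in other members (375 and 2.66 CPM without the mixed cells). Of 10283 genes, 2.2% passed 2-fold in this direction (3.33% without the mixed cells). Other genes highest in Trdc T cells by the rule came from the deepest cells: Rhpn2, Cxcl5, Vwce, Slpi, Plk4 and Marf1 were at 0 to 35.7 CPM in Trdc T cells once the mixed cells were left out.

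**Figure D4:**
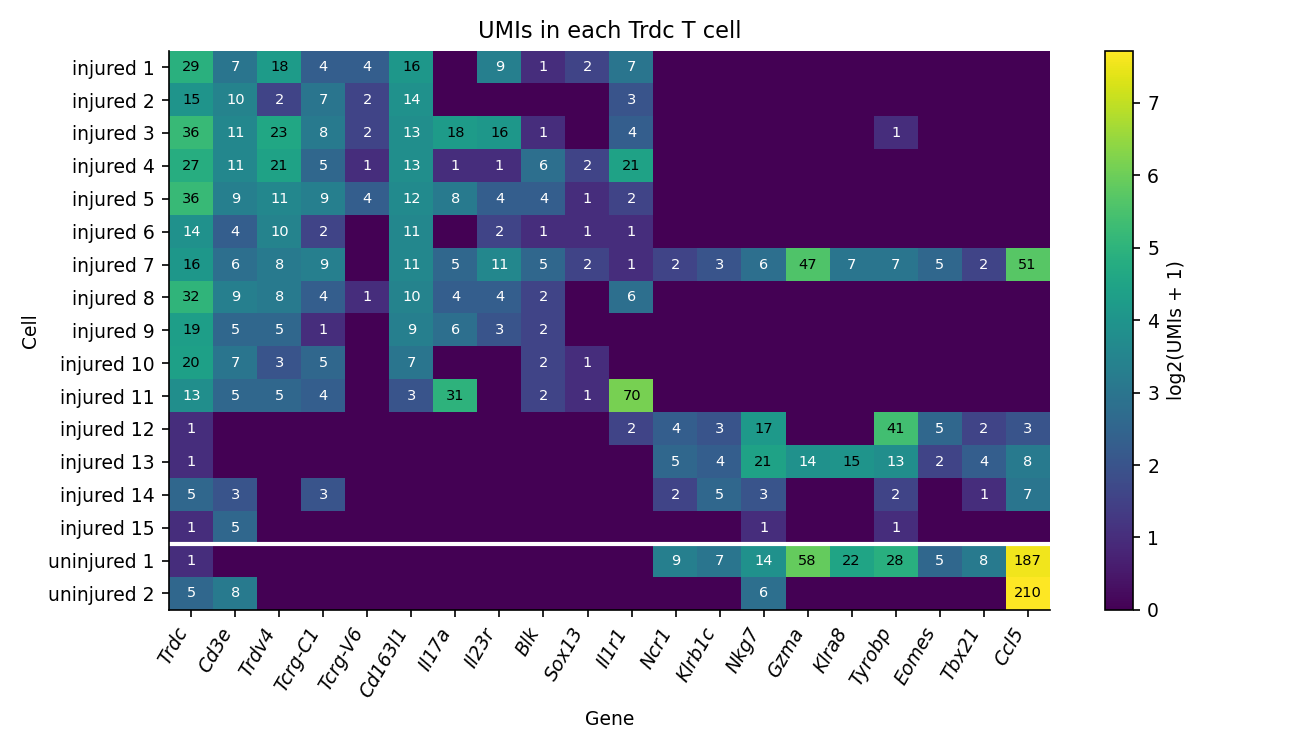
Each row is a Trdc T cell, 15 injured cells above 2 uninjured cells, each column 1 of 20 genes, and colour gives log2(UMIs + 1). Cd163l1, Trdv4 and Il23r fill the upper injured cells, 11 of which have 2 or more of the type 17 genes, and several NK genes appear together in 3 of the lower injured cells, in injured cell 7 and in uninjured cell 1.

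NK-gate cells of the uninjured tendon had higher levels of granzyme A, CCL5 and Ly49H per cell than those of the injured tendon. There were only 8 uninjured NK-gate cells, under the minimum of 20 set for gene-level comparison, so values are given side by side and per cell. The medians and ranges given next leave out the mixed cells, 9 injured and 1 uninjured, and count UMIs per 10000 UMIs of a cell. Gzma, the granzyme A gene, had a median of 30.1 (0 to 139) in 46 injured cells and 104 (43.0 to 129) in 7 uninjured cells. Ccl5, a chemokine of cytotoxic cells, had a median of 30.0 (0 to 257) in injured and 211 (123 to 364) in uninjured cells. The ranges of both genes overlapped between the limbs, with the highest injured cells reaching the uninjured level.

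Receptor genes varied from cell to cell, and Klra genes are near-identical copies among which the counting could split or lose reads. Klra8, which encodes the activating receptor Ly49H, had a UMI in 17 of 46 injured cells and 6 of 7 uninjured cells, with medians of 0 and 24.8. Klra4, which encodes Ly49D, had a UMI in 25 of 46 injured and 3 of 7 uninjured cells, with medians of 3.72 and 0. The lectin-like receptor Klre1 had medians of 4.72 in injured and 18.5 in uninjured cells, and Tyrobp, the DAP12 adaptor that signals for activating Ly49 receptors, of 13.6 and 29.6. The perforin gene Prf1 had medians of 2.46 in injured and 7.98 in uninjured cells, and Gzmb of 2.18 and 9.63. Ncr1 and Klrb1c, which chose the cells, had medians of 3.67 and 3.99 in injured cells and 5.51 and 8.25 in uninjured cells.

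Some genes were seen in injured NK-gate cells and not in uninjured ones, where 0 of 8 cells allows a share of up to 37.5%. The counts are at full depth, and injured NK-gate cells were deeper, with a median of 7894 UMIs against 6268.5. Xcl1, the chemokine that attracts cross-presenting dendritic cells, had a UMI in 36 of 55 injured and 0 of 8 uninjured cells. Ccr2 had a UMI in 40 of 55 injured and 0 of 8 uninjured cells, and in 2.24% of injured and 0.505% of uninjured fibroblast-gate cells. Lef1, known in NK cells of less mature stage, had a UMI in 33 of 55 injured and 0 of 8 uninjured cells, and in 0.790% of injured and 0.216% of uninjured fibroblast-gate cells. Without the mixed cells Xcl1 had a UMI in 33, Ccr2 in 35 and Lef1 in 30 of 46 injured cells, and each in 0 of 7 uninjured cells. Nfkbia, the inhibitor of NF-kappaB, was seen in both limbs, in 52 of 55 injured and 7 of 8 uninjured cells. Its median was 10.8 UMIs per 10000 in injured and 3.37 in uninjured cells without the mixed cells. Vegfc, a lymphatic growth factor, had a UMI in 13 of 46 injured and 0 of 7 uninjured cells without the mixed cells.

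Leaving the mixed cells out moved the summed levels. Summed over NK-gate cells, Gzma was at 1787 CPM in injured and 7524 CPM in uninjured cells, and at 3617 and 9895 CPM without the mixed cells. Klra8 was at 277 CPM in injured and 2111 CPM in uninjured cells, and at 550 and 2776 CPM without the mixed cells. The order between the limbs was the same with and without them. Within the injured library, Gzma, Klra8 and Klra4 were the NK genes among the 10 highest in NK-gate cells over other members. The other named genes of that list, Klk1, Lbp, Sfrp2, C3, Chl1, Inhba and Csmd1, were at 0 to 5.24 CPM without the mixed cells. Of 10283 genes, 3.33% passed 2-fold in that direction (3.58% without the mixed cells).

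**Figure D5:**
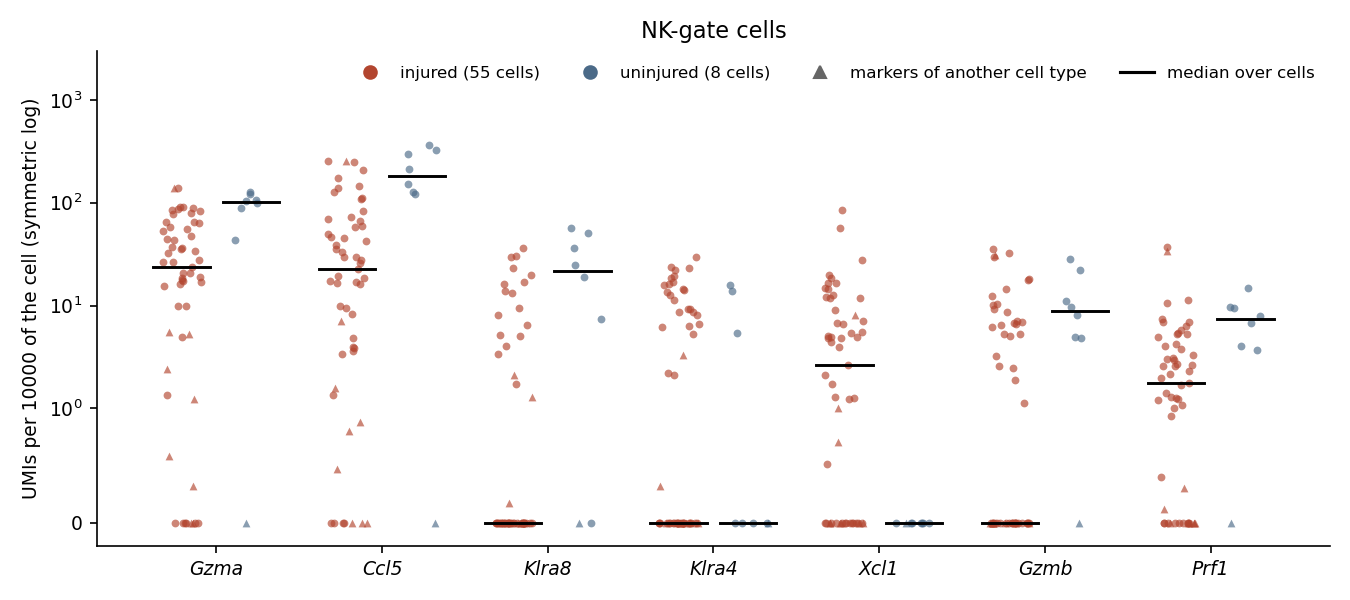
UMIs per 10000 of 7 genes are plotted for each NK-gate cell on a symmetric log axis, 55 injured cells beside 8 uninjured cells, with medians as bars and mixed cells as triangles. Gzma and Ccl5 are higher in most uninjured cells, Klra8 is at 0 in most injured cells, and Xcl1 is at 0 in all 8 uninjured cells.

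Over all members together, 8.23% of 10547 genes were called higher and 1.52% lower in the injured library (5.07% and 1.75% of 8068 without the mixed cells). Of 17 regulatory T genes 10 were called higher (10 of 15 without the mixed cells), and of 16 cell cycle genes 12 (13 without the mixed cells). Of 12 naive and central memory genes 8 were called lower and 1, Igfbp4, higher. With the mixed cells left out 7 of them were called lower, Igfbp4 among these, and 0 higher. The genes highest in injured members were mostly of the cell cycle, Hist1h1b, Pclaf, Hist1h2ap, Top2a, Hist1h2ae, Mki67 and Stmn1. Those lowest included the naive T cell genes named above and Ccl5, at 1037 CPM in injured and 4413 CPM in uninjured members. Of the 1539 uninjured Ccl5 UMIs, 1017 lay in the 8 NK-gate cells and 125 in the 23 Trac T cells. In Trac T cells without Foxp3 and not mixed the order was the opposite. Ccl5 was there at 953 CPM in injured and 511 CPM in uninjured cells, 1.86-fold (interval 1.53 to 2.28). Mgp, an extracellular matrix gene, was among the highest at 781 CPM in injured and 129 CPM in uninjured members, but 1482 of its 2237 injured UMIs lay in 1 cell, and without the mixed cells its log2 ratio was −0.97. Cma1, a mast cell protease gene, was the lowest, at 5.94 CPM in injured and 1064 CPM in uninjured members, with 355 of 371 uninjured UMIs in 1 cell with mast cell markers.

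Gamma-delta and type 17 genes were higher in 6 of 14 counted over all members (Cd163l1, Il17a, Il23r, Il1r1, Zbtb16 and Trdv4) and in 8 of 13 without the mixed cells. Of 18 NK identity genes, Klra7 was higher and Klra8 and Klra9 were lower in injured members, and without the mixed cells Klra4 and Fcer1g were also called higher. Of 12 cytotoxic granule genes, Gzmc was higher and Gzma and Prf1 were lower, and without the mixed cells Gzma and Prf1 were not called. Group 2 genes had 0 of 6 called in either direction.

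A few CD3-positive cells had no Trac or Trdc UMI. The 2 uninjured ones had 2 and 8 CD3 UMIs, all of Cd3g, and carried 21 and 20 UMIs of the group 2 factor Gata3, 10 and 38 of Il1rl1 and 11 and 25 of Rora. Both had 0 UMIs of Il13, and 63 of the 67 uninjured Areg UMIs lay in 1 of them. They had 3 of the 5 markers listed for group 2 innate lymphoid cells and are left unnamed here. Of the 12 injured cells of this kind, 1, a mixed cell, had an Il1rl1 UMI and none had more than 3 Areg UMIs.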

How the data were processed

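Cells came from 2 10x Genomics 3′ single-cell RNA-seq libraries, 1 injured and 1 contralateral uninjured. The authors deposited filtered matrices of UMI counts per gene and barcode, made with Cell Ranger 5.0.1 against mm10, per the submitters' processing notes. The annotation release they used was not stated. Kept barcodes had 500 genes or more and no more than 10% of UMIs from mitochondrial genes, and lymphocytes were chosen by the thresholds stated above. The members and gene lists were chosen with earlier results of these data known.

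Raw UMIs were summed per library and subset and scaled to CPM. Genes with 20 or more UMIs over both libraries were compared as log2 ratios with a pseudocount of 20 CPM, and subsets only with 20 or more cells in each library. With 1 library per group no test across samples exists: shares carry exact Clopper-Pearson intervals and ratios conditional exact intervals, at 95%. A count of 0 was given a floor of 3 UMIs. For shares at equal depth, cells were thinned to 3000 UMIs and shallower cells left out. Doublets were not removed: Scrublet (scanpy 1.11.5) scored 7 injured and 0 uninjured members above 0.2, 6 of them mixed cells. The rule for mixed cells was chosen after seeing the data.

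Genes named between limbs were the 12 highest and 12 lowest log2 ratios among those at 100 CPM or more, detected in 10% of the cells of the library where they were higher and no lower there than in non-members. For subsets, the 10 highest over other members at 100 CPM or more were named, and list genes at 20 CPM or more. Mitochondrial, ribosomal, haemoglobin, immunoglobulin, receptor V/J, sex-linked and unnamed gene models were left out, and a few genes are not reported here. In simulated libraries with counting error only, 96.5% of intervals covered the true ratio. The simulation held no variation between cells, so it does not show coverage for genes whose UMIs gather in a few cells. Positions are from GENCODE M21 (GRCm38). Python 3.11.15, numpy 2.4.6, scipy 1.17.1, pandas 2.3.3 and matplotlib 3.10.9 were used.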

Additional observations from a re-analysis of the deposited data

Results flagged for a closer look

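Cells that met the CD3 or NK thresholds but not the macrophage or neutrophil limits were outside every comparison above. They made up 0.246% of filtered cells in the injured library (23 of 9366, interval 0.156 to 0.368%) and 0.0210% in the uninjured library (1 of 4760, interval 0.000532 to 0.117%). The injured share of filtered cells lay above the uninjured one. As a share of cells that met the CD3 or NK thresholds, the intervals overlapped. These were 9.75% injured (23 of 236, interval 6.28 to 14.3%) and 2.70% uninjured (1 of 37, interval 0.0684 to 14.2%). Non-members at or over the C1q limit numbered 2296 injured and 433 uninjured. Those at or over the S100a8 and S100a9 limit numbered 946 injured and 4 uninjured. Of the 23 injured cells 15 were removed by C1q and 8 by S100a8 and S100a9. What these cells are was not tested.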

How the results depend on the processing

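No paired analysis was possible because each limb has 1 library, which also leaves no replicate to leave out. The difference between injured and uninjured members as a share of filtered cells was 1.52 percentage points, 1.04 with at most 1 C1q UMI, 1.61 in cells with Xist, 1.32 in cells with Y-linked UMIs and −1.04 among Ptprc-positive cells, which reversed it. The difference in NK-gate share of 3.60 points turned to −1.87 after thinning. The Trac T difference of −9.43 points became −15.1 under a stricter rule for receptor genes and −11.7 after thinning, and that in Mki67 or Top2a of 14.4 points became 7.25 after thinning. Genes called higher in Trac T cells numbered 1027, and 2167 and 336 at pseudocounts of 5 and 50 CPM and 656 with each cell weighed the same. Those called lower numbered 171, 310 and 84 at those pseudocounts and 84 under median-ratio scaling. In all members 868 were called higher, 2322 and 304 at those pseudocounts, 344 with cells weighed the same, 468 with at most 1 C1q UMI and 409 without mixed cells. Those called lower numbered 160, 367 and 77 at those pseudocounts and 98 under median-ratio scaling. Under that scaling 91.5% of calls in members were higher, against 84.4% as reported, and 94.1% against 85.7% in Trac T cells. Of 598 values for 46 log2 ratios of named genes under 13 alternatives, 2 turned direction: Mgp without mixed cells (−0.97), and Cacna1c in Y-linked cells of the Trac T subset (0.38); 195 lay outside the counting interval of the reported ratio. The Foxp3 difference kept its direction at 20.2 points (thinned, a setting added after seeing the data) to 30.4 points in the settings run. A mean over subsets weighed alike was not run, since uninjured NK-gate and Trdc T cells fell under 20. The number of uninjured cells limits these comparisons, since 0 of 23 Trac T cells allows a share of up to 14.8% by the exact interval. The causes of these moves were not tested.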
